A study of Rattus norvegicus with 8 samples.

Results

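Trigeminal nerve of the congenic rat strain BDIX.BDIV-Mss4d was compared with that of BDIX, the recipient strain whose genome the congenic carries outside its BDIV segment. These were 4 of the 8 bead arrays of the series, 1 female and 1 male pool of nerves per strain, and the other 4 held BDIV and a second congenic strain, BDIX.BDIV-Mss4a. All rats were untreated and 85 days old, neither the number of animals per pool nor the position of the segment is stated, and no strain had a second pool of the same sex. The congenic strains are written Mss4d and Mss4a below. Of 22523 probes, 11839 were taken because their detection p, the authors' test of a signal against background, was under 0.05 on both arrays of Mss4d or on both arrays of BDIX.

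The trigeminal nerve carries sensory axons of the face in sheaths of Schwann cells, fibroblasts and perineurium, with blood vessels between them. BDIX rats develop malignant tumours of Schwann cells in this nerve after a neonatal dose of the carcinogen ethylnitrosourea, BDIV rats resist them, and the Mss loci are segments linked to that difference. The thyroid gland, which is not part of the nerve, makes thyroglobulin in its follicles and calcitonin in its C cells, and its follicles are an epithelium. Thyroid and epithelial transcripts are therefore described apart from those of the nerve.

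Levels are normalized signals on a log2 scale, so that a difference of 1 is 2-fold, and differences are Mss4d minus BDIX with the standard error of the limma fit (2 arrays in each strain). The median signal before normalization was 145 and 141 on the Mss4d arrays against 80.2 and 86.9 on the BDIX arrays, so strain and array brightness cannot be told apart, and the number of arrays limits the precision. The 14 genes of the list of compact myelin and paranode with a probe all met the detection rule, with the myelin gene Pmp22 between 14.86 and 15.41 on the 4 arrays. The Mss4d female array correlated with the BDIX male array at r = 0.976 across probes and with the Mss4d male array at 0.979, and genes are not independent replicates here. Male and female pools differed with an SD of 0.489 in Mss4d and 0.521 in BDIX, against 0.217 in BDIV.

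Thyroid transcripts made up the largest difference between the strains, and the Mss4d male pool held far more of them than the female pool. The summed signal of 20 follicle genes with a probe was 5908 in the female and 53456 in the male Mss4d pool against 783 to 824 in BDIX. Whether the Mss4d pools held thyroid tissue was not tested, and in this design a difference of the strain and one of the tissue collected cannot be told apart. Thyroglobulin mRNA (Tg, the protein on which thyroid hormone is made) stood at 12.20 (female) and 14.87 (male) in the Mss4d pools, and at 5.03 and 5.12 in the BDIX pools. Values below are given in this order, female first. Neither BDIX array was well above background, so Tg was at least 328-fold higher in Mss4d (8.46 ± 0.62, limma adjusted p = 0.0101). On the Mss4d male array Tg ranked 19 of 22523 probes by signal, and on the female array 756. In Mss4a and BDIV it lay between 4.87 and 5.09.

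Calca, which encodes calcitonin of the C cells and the neuropeptide CGRP of sensory neurons, was at 8.92 and 14.83 in the Mss4d pools and at 4.62 and 4.79 in the BDIX pools. It was at least 104-fold higher in Mss4d (7.17 ± 1.36, limma adjusted p = 0.0310). The related gene Calcb, which encodes a second CGRP of sensory neurons, lay at 10.08 and 9.83 in Mss4d and 9.37 and 10.02 in BDIX, and these values overlapped. Of the other C cell genes only Gfra4, a receptor gene of the GDNF family, and Pcsk2, a prohormone convertase gene, were higher by over 1 in the male pools (2.11 and 2.04), where Gfra4 did not meet the detection rule and Pcsk2 did not pass the test. Chga and Chgb, which encode granins of endocrine cells and neurons, differed by 0.32 and -0.13.

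Other genes of thyroid hormone synthesis had the same order of pools. Dio1, a deiodinase that activates thyroid hormone, was at 7.81 and 13.32 in Mss4d and 4.85 and 5.02 in BDIX (at least 41.9-fold, limma adjusted p = 0.0505, which missed the threshold). Slc5a5, the iodide transporter, was at 7.20 and 12.54 against 5.85 and 5.79. Tshr, the receptor for thyrotropin, was at 5.56 and 9.62 against 4.85 and 4.86. For these 3 genes the female Mss4d pool stood between the BDIX pools and the male Mss4d pool.

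Of 20 follicle genes with a probe, 15 were higher by over 1 in the male pools, where 3.57% of all genes with a probe were, and 4 in the female pools, where 4.26% were. The 4 were Tg, Dio1, Slc5a5 and the potassium channel gene Kcnj13. Of the 20, 8 were detected on the Mss4d male array alone of the 4 arrays, against 2.01% of all genes, and were not tested. Among them were 3 transcription factors that specify the thyroid: Foxe1 at 4.86 and 10.60, Pax8 at 5.09 and 7.40, and Nkx2-1 at 4.63 and 6.42. On both BDIX arrays these 3 genes lay between 4.52 and 4.98, at background.

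The detection rule left 8 follicle genes, most of which met it through Mss4d alone, so their count carries little weight: 2 rose (Tg and Kcnj13) and none fell, where 1.82% of all 8445 tested genes rose and 4.89% fell. Kcnj13 was an exception to the order of the pools, at 6.97 and 6.83 in Mss4d against 5.07 and 5.11 in BDIX. It was at least 3.31-fold higher in Mss4d (1.81 ± 0.19, limma adjusted p = 0.0112). Kcne2, a potassium channel subunit of thyroid and stomach, was at background at 5.16 and 4.88 in Mss4d against 5.86 and 5.69 in BDIX and did not pass (at least 1.42-fold lower, limma adjusted p = 0.0501). The parathyroid hormone gene Pth was at 5.75 in the Mss4d male pool and between 4.76 and 4.91 in the other 3 pools.

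**Figure D1:**
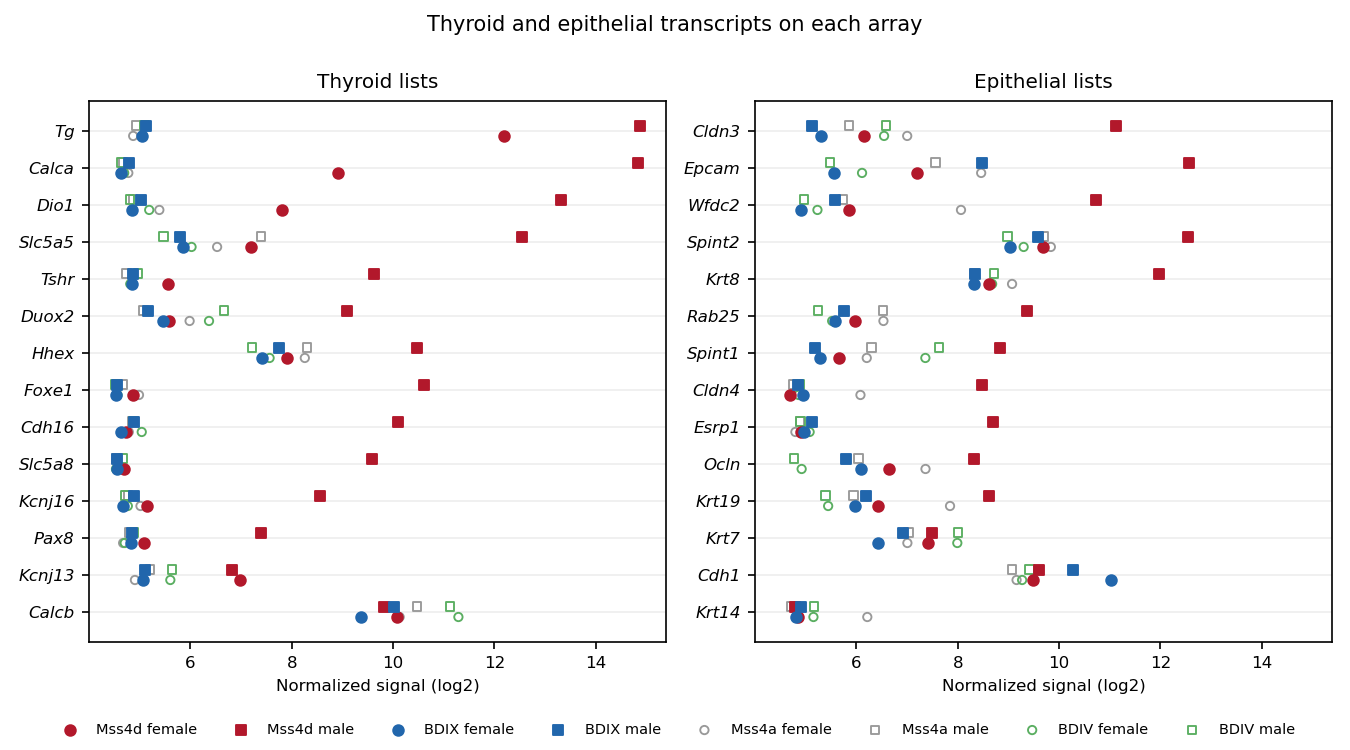
Normalized signal (log2, x axis) of thyroid list genes (left) and epithelial list genes (right) on each of the 8 arrays, with circles for female and squares for male pools. The Mss4d male pool is far to the right for most genes, while Tg is also high in the Mss4d female pool (12.20) and Kcnj13 is level between the Mss4d pools.

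The same excess in the Mss4d male pool was tested against the male minus female differences of the other 3 strains. It passed for 38 of 11839 probes (0.321%), and all 38 were higher in the male pool. Of the 38, 16 met the detection rule through Mss4d only, so the count carries little weight, and with no detection filter 14 of them passed. Without either BDIX array 3 probes passed, those of Calca, Dio1 and Epcam, and 2 of these were among the 38. The 38 held 30 named genes, of which 6 were in the thyroid lists, 4 in the epithelial lists and 1 in the adipocyte list, while 19 were in no list. The male excess over the other strains was 5.91 ± 0.33 for Calca, 5.75 ± 0.39 for Dio1, 4.03 ± 0.32 for Tshr and 2.61 ± 0.31 for Tg (limma adjusted p = 0.00648, 0.00648, 0.0130 and 0.0403). Slc5a5 (5.26 ± 0.55) and Duox2, an oxidase that supplies peroxide for hormone synthesis (3.81 ± 0.49), also passed.

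Among the genes in no list were Egfl6, a secreted EGF-like matrix protein gene, at 6.49 and 11.50 in Mss4d and 4.84 and 4.83 in BDIX, and Sectm1b at 6.30 and 11.58 against 4.76 and 5.20. The diaphragm gene of fenestrated endothelium, Plvap, was at 8.40 and 12.99 against 6.76 and 6.97. Fabp4, a fatty acid carrier of adipocytes and small vessels, was at 5.74 and 8.81 against 5.24 and 5.66. All 4 were highest in the Mss4d male pool and had smaller differences in the female pools. No probe passed with an excess in the Mss4d female pool. Among the 5 genes with the smallest p on that side the largest values were -2.42 for Akr1c12 and -1.82 for Scpep1.

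Epithelial transcripts were higher in the Mss4d male pool as well. Epcam, an adhesion protein of epithelia, was at 7.20 and 12.57 in Mss4d and 5.56 and 8.47 in BDIX, so the Mss4d female lay below the BDIX male pool. Cldn3, a tight junction claudin, was at 6.15 and 11.12 against 5.30 and 5.11, and the keratin gene Krt8 at 8.62 and 11.97 against 8.32 and 8.34. Of 33 genes of epithelial adhesion and junction with a probe, 17 were higher by over 1 in the male pools, where 3.57% of all genes with a probe were, and 2 in the female pools, where 4.26% were. The summed signal of these 33 was 23730 in the Mss4d male pool, 3695 in the female pool and 4058 to 4284 in BDIX, and the part of other tissue was not tested. The male excess passed for Cldn3 (5.40 ± 0.51), Krt8 (3.57 ± 0.42), Rab25 (3.43 ± 0.34), a small GTPase of epithelial recycling, and the protease inhibitor gene Spint1 (3.11 ± 0.33).

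Of 18 tested epithelial adhesion genes 16 were higher in both pairs of pools and 2 lower in both, with a median difference of 1.01. Over all tested genes 2989 of 8445 were higher in both, with a median of 0.03. Some of the 18 met the detection rule through Mss4d alone, so these counts carry little weight. Past the threshold over both sexes none of the 18 rose and 1 fell, where 1.82% of all tested genes rose and 4.89% fell. That gene was Cdh1 (E-cadherin, which also joins the membranes of myelinating Schwann cells to themselves), at 9.48 and 9.61 in Mss4d against 11.02 and 10.28 in BDIX (-1.10 ± 0.26, limma adjusted p = 0.0484). Among markers of layered epithelium Krt14, Krt15 and Tp63 were at background on all 4 arrays, between 4.61 and 4.91. Krt17 was detected in BDIX alone, with means of 4.93 in Mss4d and 5.36 in BDIX, and did not pass. Cdh3 was detected in Mss4d alone, with means of 5.44 and 5.03, and did not pass either. Of 21 nasal, olfactory and salivary genes with a probe, 15 were at background on all 4 arrays and 3 were tested without a call. Among the 3 tested, Wfdc2, a secreted protein gene of glands and airway, was at 5.86 and 10.74 in Mss4d against 4.91 and 5.59 in BDIX. In the male pools 3 of the 21 were higher by over 1 (3.57% of all genes), and in the female pools 0 (4.26%). Bpifa1 and Scgb1c1 were detected on the Mss4d male array alone, 2 of 21 against 2.01% of all genes. The summed signal of the 21 was 2513 in the Mss4d male pool, 701 in the female pool and 619 to 677 in BDIX.

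In the whole comparison 857 probes passed (7.24%), 231 of them higher (1.95%) and 626 lower (5.29%) in Mss4d. Every one had the same sign in both pairs of pools, which a test of their mean largely requires, so this adds little. Of the falls 26 were also below Mss4a past the threshold and 372 below BDIV. Of the rises 40 were also above Mss4a and 159 above BDIV. The falls moved with the BDIX female array: in 586 of the 626 (93.6%) the BDIX female pool was above the BDIX male pool, against 52.9% of all tested probes and 32.5% of the rises. Without that array no probe passed in limma and 2375 had an unadjusted p under 0.05, 4 passed without the Mss4d male array, 253 passed when the Mss4d female was dropped, and 1409 when the BDIX male was. Without either array of BDIV, the pair with the smallest spread, 135 passed. Of 55 named calls 0 held through all of these single-array omissions, and the part of single arrays in the calls described below was not tested further. With arrays scaled to their medians 72.5% of 3014 calls were rises, where the median of all probes moved by 0.29, against 27.0% in the main comparison.

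**Figure D2:**
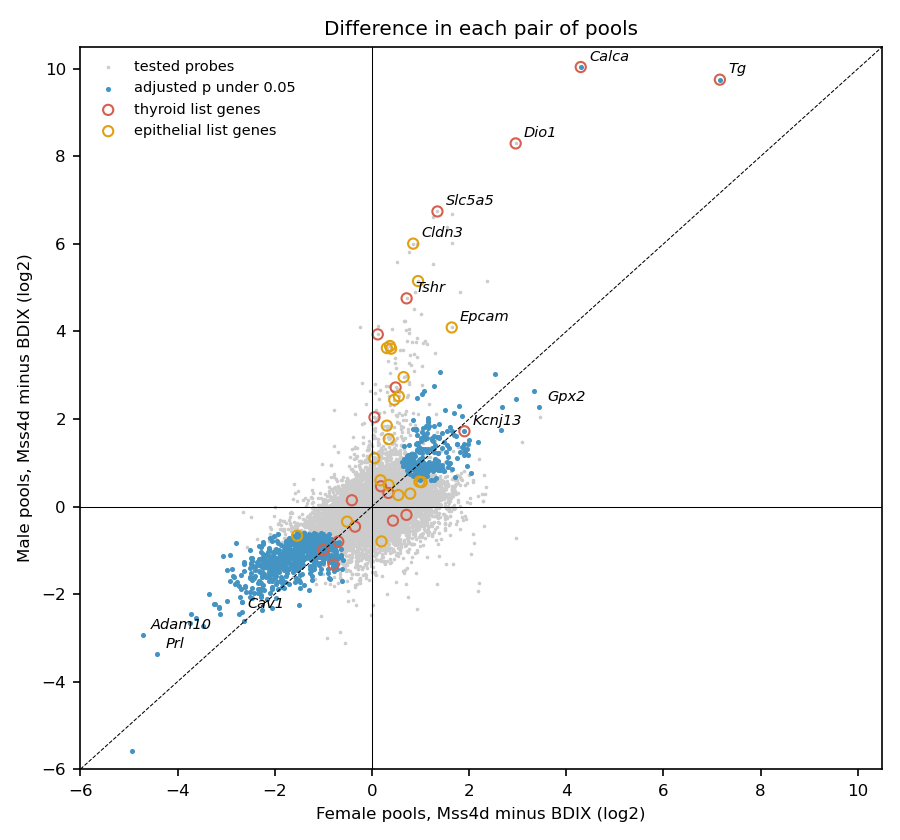
Mss4d minus BDIX difference (log2) of the 11839 tested probes in the female pools (x axis) and the male pools (y axis), with probes past the threshold in blue and rings on thyroid and epithelial list genes. The ringed genes rise along the male axis, while blue falls lie mostly above the diagonal, with the larger difference in the female pools.

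Among rises past the threshold outside the thyroid and epithelial lists the largest was that of Gpx2, a glutathione peroxidase that removes hydroperoxides in epithelia. It was at 10.55 and 10.65 in the Mss4d pools and at 7.10 and 8.39 in the BDIX pools (2.86 ± 0.31, limma adjusted p = 0.0116). Mss4a lay at 9.84 and 10.09 and BDIV at 10.83 and 10.96, so the 2 BDIX pools were the lowest of the 8. Mss4d differed from BDIV by -0.29 ± 0.31 and from Mss4a by 0.64 ± 0.31, and neither passed (limma adjusted p = 0.491 and 0.237). In these contrasts 33.1% and 2.04% of probes passed.

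Gpx2 belongs with Nqo1, a quinone reductase, to the genes that the factor NRF2 is known to induce through the antioxidant response element. Nqo1 was at 12.30 and 12.21 in Mss4d and 11.19 and 11.37 in BDIX (0.97 ± 0.18, limma adjusted p = 0.0290), and the Mss4a pools, at 12.40 and 12.46, were as high. These 2 were the rises among 24 tested glutathione and detoxification genes, and none fell, where 1.82% of all tested genes rose and 4.89% fell. In Gpx2 and Nqo1, as in Rnf208, Bcas3, Prkce, Morn2 and Khk, the BDIX pools lay below those of every other strain. The start of Gpx2, which had the largest rise of these, is shown. Its RefSeq promoter in GRCr8, on the minus strand at chr6:101229984-101230283, runs from 250 bases before to 50 after the gene start, and the capitals mark the match to TGACNNNGC, searched on both strands.
Gpx2: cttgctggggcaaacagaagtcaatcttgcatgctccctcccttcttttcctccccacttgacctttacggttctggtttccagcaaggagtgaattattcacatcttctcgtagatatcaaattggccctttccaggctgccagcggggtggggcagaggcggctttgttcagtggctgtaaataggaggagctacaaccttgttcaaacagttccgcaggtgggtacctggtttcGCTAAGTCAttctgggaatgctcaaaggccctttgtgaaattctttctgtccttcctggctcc
The match starts at -13 from the gene start and lies on the opposite strand. Among 33469 rat promoters of 300 bases 12.1% held these letters, and that of Nqo1 did not hold them. A strain difference in this sequence was not analysed here.

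Plekhh1, which encodes a protein with PH and FERM domains, did not meet the detection rule. It was at 5.2 and 7.71 in Mss4d, at 5.14 and 4.82 in BDIX, and between 9.38 and 9.74 on the 4 arrays of Mss4a and BDIV. It was detected on the Mss4d male array and on neither BDIX array, and was not tested.

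Other large rises were those of Hdac4, Kmt2e and Tbx3. Hdac4, a histone deacetylase that shuttles between nucleus and cytoplasm, was at 9.09 and 9.53 in Mss4d and 7.24 and 7.45 in BDIX (1.96 ± 0.21, limma adjusted p = 0.0116). It was also above Mss4a by 1.29 ± 0.21 and above BDIV by 1.51 (limma adjusted p = 0.0433 and 0.00392). Kmt2e, a chromatin protein gene, was at 9.85 and 9.93 against 8.12 and 8.32 (1.67 ± 0.17, limma adjusted p = 0.0112). The T-box factor gene Tbx3 was at 6.91 and 8.35 against 5.87 and 5.78 (1.80 ± 0.34, limma adjusted p = 0.0310), with the male pool the higher. In these 3 genes both Mss4d pools stood above all 6 pools of the other strains.

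Thrb, a nuclear receptor for thyroid hormone, was at 9.18 and 9.17 in the Mss4d pools and at 8.11 and 6.54 in the BDIX pools (1.85 ± 0.38, limma adjusted p = 0.0374). The other receptor gene, Thra, fell, from 12.71 and 12.31 in BDIX to 11.71 and 11.57 in Mss4d (-0.87 ± 0.19, limma adjusted p = 0.0397). Of 15 tested genes of the thyroid hormone response these 2 passed, 1 in each direction, where 6.71% of all tested genes passed. Thrsp, a lipogenic gene that thyroid hormone induces in liver, was at 7.26 and 11.96 in Mss4d against 4.90 and 6.80 in BDIX and did not pass, and other induced genes, Klf9 (0.22) and Hr (-0.09), were near 0.

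Lims1, an adaptor of integrin adhesions, was at 8.38 and 8.70 in Mss4d and 7.46 and 6.21 in BDIX (1.70 ± 0.37, limma adjusted p = 0.0419). It was above Mss4a by 3.09 ± 0.37 and above BDIV by 2.25 (limma adjusted p = 0.0227 and 0.00616). Cdk14, a cyclin-dependent kinase of Wnt signalling, was at 10.64 and 10.10 against 8.45 and 8.63 (1.83 ± 0.31), and BDIV lay at the same height, 10.01 and 10.41. Pi4k2a, a lipid kinase gene of endosomes, rose by 1.85 ± 0.43. Prr15 (2.24 ± 0.39) and C1h19orf81 (2.02 ± 0.44) had their higher Mss4d value in the male pool, while Rnf208 (1.70 ± 0.23) and Bcas3 (1.67 ± 0.19, detected on 1 of 2 BDIX arrays) were level between them. All of these passed, with limma adjusted p between 0.0116 and 0.0484.

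**Figure D3:**
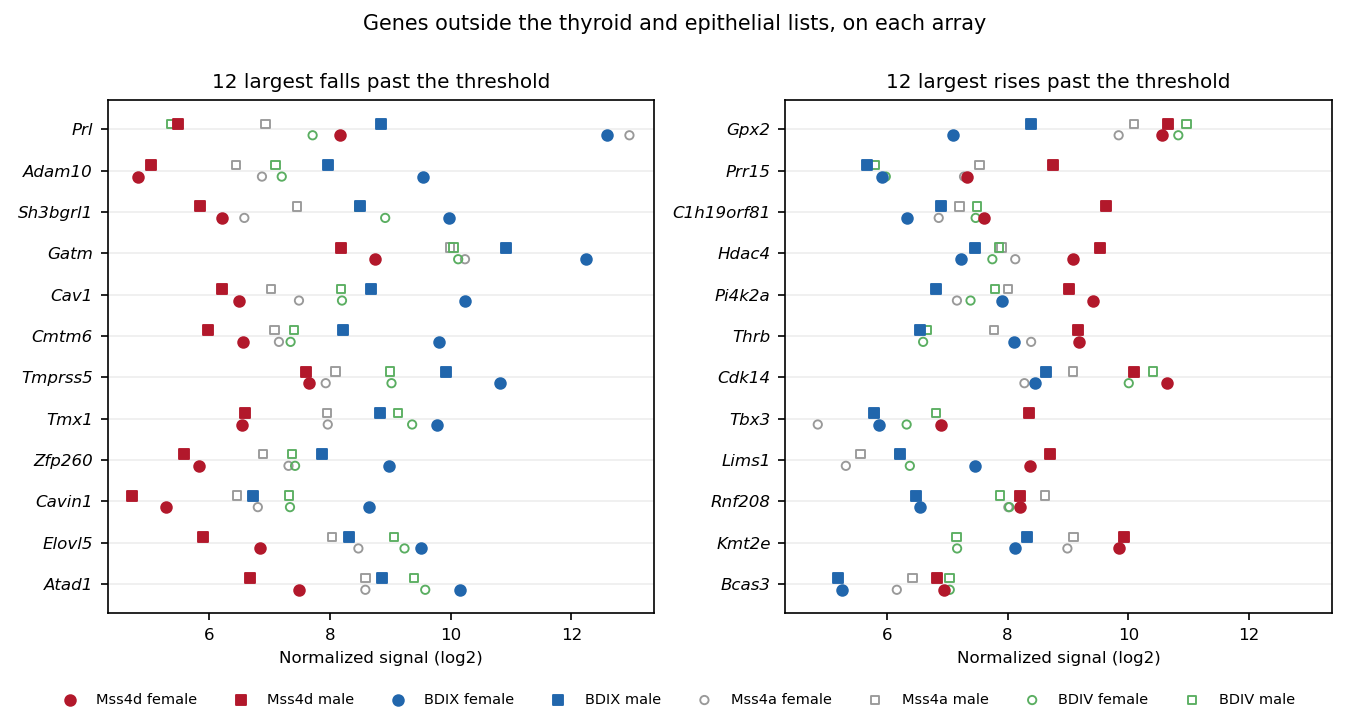
Normalized signal (log2, x axis) on each of the 8 arrays of the 12 genes with the largest falls (left) and rises (right) past the threshold outside the thyroid and epithelial lists. In all 12 falls the BDIX female pool lies above the BDIX male pool, and both Mss4d pools lie below both.

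The largest falls past the threshold included the caveola genes Cav1 and Cavin1. Cav1, the scaffold protein of caveolae, small pits of the plasma membrane, was at 6.50 and 6.22 in Mss4d and 10.24 and 8.68 in BDIX (-3.10 ± 0.35, limma adjusted p = 0.0120), and its other probe showed -2.60 ± 0.27 (limma adjusted p = 0.0112). Its partner Cav2 was at 9.33 and 9.17 against 11.60 and 10.77 (-1.93 ± 0.28, limma adjusted p = 0.0184). Cavin1, which encodes the coat protein of caveolae, was at 5.29 and 4.73 against 8.65 and 6.73 (-2.68 ± 0.42, limma adjusted p = 0.0218), detected on 1 of 2 Mss4d arrays. Of 7 tested caveola genes these 3 fell and none rose, where 4.89% of all tested genes fell, with a median of -0.62 against 0.03 for all tested genes. The median was -1.21 in the female and -0.10 in the male pools, and ran from -1.15 to -0.10 with 1 array left out, lowest without the BDIX male and nearest to 0 without the BDIX female array. Not every caveola gene moved with them: Cavin3 differed by 0.10 and Ehd2, which encodes an ATPase at the caveola neck, by -0.62 without passing. Mss4a and BDIV levels of Cav1, between 7.02 and 8.20, lay between those of Mss4d and BDIX. On the other probe Mss4a was at 5.20 and 5.08 and Mss4d at 5.87 and 5.08. There Mss4a was under the lowest detected signals of its arrays (5.43 and 5.45). Mss4d was detected on 1 of 2 arrays, so the 2 strains cannot be ranked with this probe.

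Adam10, a protease that sheds membrane proteins, fell at least 11.2-fold, from 9.55 and 7.97 in BDIX to background at 4.83 and 5.04 in Mss4d (-3.83 ± 0.40, limma adjusted p = 0.0112). Its other probe was at 6.18 and 5.48 against 7.33 and 6.33 and missed the threshold (-1.0, limma adjusted p = 0.0768). The 2 probes therefore differed in size, and a sequence variant beneath either was not tested. On the first probe Mss4a (6.88 and 6.45) and BDIV (7.20 and 7.10) lay between Mss4d and BDIX. On the second Mss4a was below Mss4d, at 5.32 and 4.93, and BDIV was at 6.05 and 6.22. Cmtm6, a membrane protein that stabilises other surface proteins, was at 6.57 and 5.99 against 9.81 and 8.22 (-2.74 ± 0.38). Tmx1, a thioredoxin-like protein of the endoplasmic reticulum, was at 6.55 and 6.60 against 9.78 and 8.83 (-2.73 ± 0.27), and Tmprss5, a membrane serine protease gene, at 7.66 and 7.61 against 10.82 and 9.93 (-2.74 ± 0.27). In each the fall was larger in the female pools.

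Gatm and Elovl5 were also among the largest falls past the threshold. Gatm, the first enzyme of creatine synthesis, was at 8.75 and 8.19 in Mss4d and 12.24 and 10.91 in BDIX (-3.10 ± 0.30, limma adjusted p = 0.0112), and Mss4a and BDIV lay between, from 9.98 to 10.24. Elovl5, an elongase of polyunsaturated fatty acids, was at 6.84 and 5.90 against 9.51 and 8.32 (-2.54 ± 0.27, limma adjusted p = 0.0116). Both were also below Mss4a (-1.64 and -1.88, limma adjusted p = 0.0498 and 0.0355) and BDIV (-1.61 and -2.78, limma adjusted p = 0.00915 and 0.00203). Of 16 tested genes of fatty acid synthesis Elovl5 and Acsl3, an acyl-CoA synthetase (-0.80 ± 0.18), fell and none rose. Over all tested genes 4.89% fell and 1.82% rose. Of 16 cholesterol synthesis genes none passed, with a median of -0.34.

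Prl, the pituitary hormone prolactin, was among the largest falls past the threshold and was higher in the female than the male pool of every strain. It was at 8.17 and 5.48 in Mss4d and 12.59 and 8.85 in BDIX (-3.90 ± 0.78, limma adjusted p = 0.0343). The female Mss4d pool, at 8.17, was close to the male BDIX pool. Of 7 pituitary genes with a probe, 3 were tested, and neither other gene passed: Tshb was at background at 4.59 and 4.64 in Mss4d against 5.52 and 7.63 in BDIX (at least 2.47-fold lower, limma adjusted p = 0.143), and Pomc was lower in both pools (-1.83). The summed signal of the list was 607 and 328 in Mss4d against 2122 to 6587 in BDIX, and the part of pituitary RNA in Prl was not tested. Sh3bgrl1 (-3.20 ± 0.47), Zfp260 (-2.71 ± 0.27) and Atad1 (-2.42 ± 0.32), an extractor of misplaced membrane proteins, complete the 12 largest falls past the threshold.

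Among Schwann cell genes a few fell and most did not pass. Whole nerve was measured, so fewer cells of a type and less RNA per cell cannot be told apart. Mbp, a major protein of compact myelin, was at 11.72 and 11.30 in Mss4d and 14.06 and 13.19 in BDIX (-2.12 ± 0.24, limma adjusted p = 0.0116), and Mss4a (11.59 and 11.43) was as low as Mss4d. Ugt8, the enzyme that makes the myelin lipid galactosylceramide, was at 12.47 and 12.63 against 13.78 and 13.48 (-1.08 ± 0.21, limma adjusted p = 0.0315), and Mss4a, at 11.95 and 11.75, was lower still. Of 14 tested myelin and paranode genes these 2 fell and none rose (median -0.31), where 4.89% of all tested genes fell, and Pmp22 (0.45), Cnp (-0.17) and Mag (-0.35) did not pass.

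Of 22 tested genes of Schwann cell transcription factors and immature Schwann cells, 3 fell and 1 rose (median 0.08), where 4.89% of all tested genes fell and 1.82% rose. Scn7a, a sodium channel gene of non-myelinating Schwann cells, was at 10.94 and 10.18 in Mss4d and 12.18 and 11.85 in BDIX (-1.46 ± 0.21, limma adjusted p = 0.0191). Nab1, a cofactor of the myelination factor EGR2, was at background at 5.24 and 5.0 against 7.18 and 6.33, at least 2.81-fold lower (limma adjusted p = 0.0141). Yy1, a transcription factor that Schwann cells need for myelination, fell by 0.96 ± 0.20. Pax3, a factor of immature Schwann cells, was at 6.70 and 6.40 against 5.26 and 5.05 and rose (1.39 ± 0.25, limma adjusted p = 0.0285, detected on 1 of 2 BDIX arrays). The lineage factor Sox10 (-0.38), Egr2 (0.39) and the injury factor Jun (0.49) did not pass.

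Of 16 tested Ras brakes and tumour suppressors 3 fell and none rose (median -0.14), where 4.89% of all tested genes fell and 1.82% rose. Rb1, the retinoblastoma gene, was at 5.77 and 5.40 in Mss4d and 7.87 and 6.64 in BDIX (-1.67 ± 0.33, limma adjusted p = 0.0343). Cdkn1b, the cell cycle inhibitor p27, was at 10.04 and 9.99 against 10.90 and 10.95 (-0.91 ± 0.17, limma adjusted p = 0.0319), and Spred1, a brake on Ras, at 7.84 and 7.66 against 8.58 and 8.75 (-0.92 ± 0.19, limma adjusted p = 0.0360). Mss4a was lower than Mss4d in both genes, with Cdkn1b at 9.53 and 9.37 and Spred1 at 7.45 and 7.25. Nf1, the Ras brake mutated in inherited Schwann cell tumours, was at background at 4.95 and 4.81 in Mss4d against 5.65 and 5.48 in BDIX (at least 1.23-fold lower, limma adjusted p = 0.0654, which missed the threshold). Of 9 tested neuregulin and ErbB genes none passed, with the receptor gene Erbb3 at -0.81 ± 0.21 (limma adjusted p = 0.0645), the receptor gene Erbb2 at 0.37 and the ligand gene Nrg1 at 0.04.

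Of all tested genes 6.71% were called, and the lists of sensory neuron and axonal motor genes held 1 call each. Map1b, a microtubule protein of axons, was at 10.99 and 10.10 in Mss4d and 13.30 and 12.03 in BDIX (-2.12 ± 0.38, limma adjusted p = 0.0285), but its other probe was higher (1.26 ± 0.36, limma adjusted p = 0.0756), so the 2 probes differed in sign. It was the 1 call among 22 tested sensory neuron genes (median -0.20), and the neurofilament genes Nefl (-0.10), Nefm (-0.49) and Nefh (-0.48) did not pass. Of 15 axonal motor genes 1 fell: Kif5b, a kinesin heavy chain, was at 8.49 and 7.90 against 10.84 and 9.65 (-2.05 ± 0.29, limma adjusted p = 0.0176). The neuronal kinesins Kif5a (0.47) and Kif5c (0.20) did not pass.

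In the connective tissue and vessels of the nerve the calls went both ways, where 1.82% of all tested genes rose and 4.89% fell. Of 22 tested fibroblast and perineurium genes Cldn1, a claudin of the perineurial barrier (-1.17 ± 0.18, limma adjusted p = 0.0203), and Col3a1, a fibrillar collagen (-0.93 ± 0.22, limma adjusted p = 0.0492), fell. Fmod, which encodes a collagen-binding proteoglycan, was at 7.98 and 7.93 in Mss4d against 6.85 and 6.68 in BDIX and rose (1.19 ± 0.23, limma adjusted p = 0.0319). The endothelial receptor gene Tie1 was at 9.0 and 9.64 against 7.84 and 7.72 (1.54 ± 0.22, limma adjusted p = 0.0184), and its other probe was at 0.50 without passing. With Egfl7, an endothelial matrix gene (1.02 ± 0.22), it was one of 2 rises among 11 tested endothelial genes, while the receptor gene Tek was lower at -0.84 and did not pass.

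**Figure D4:**
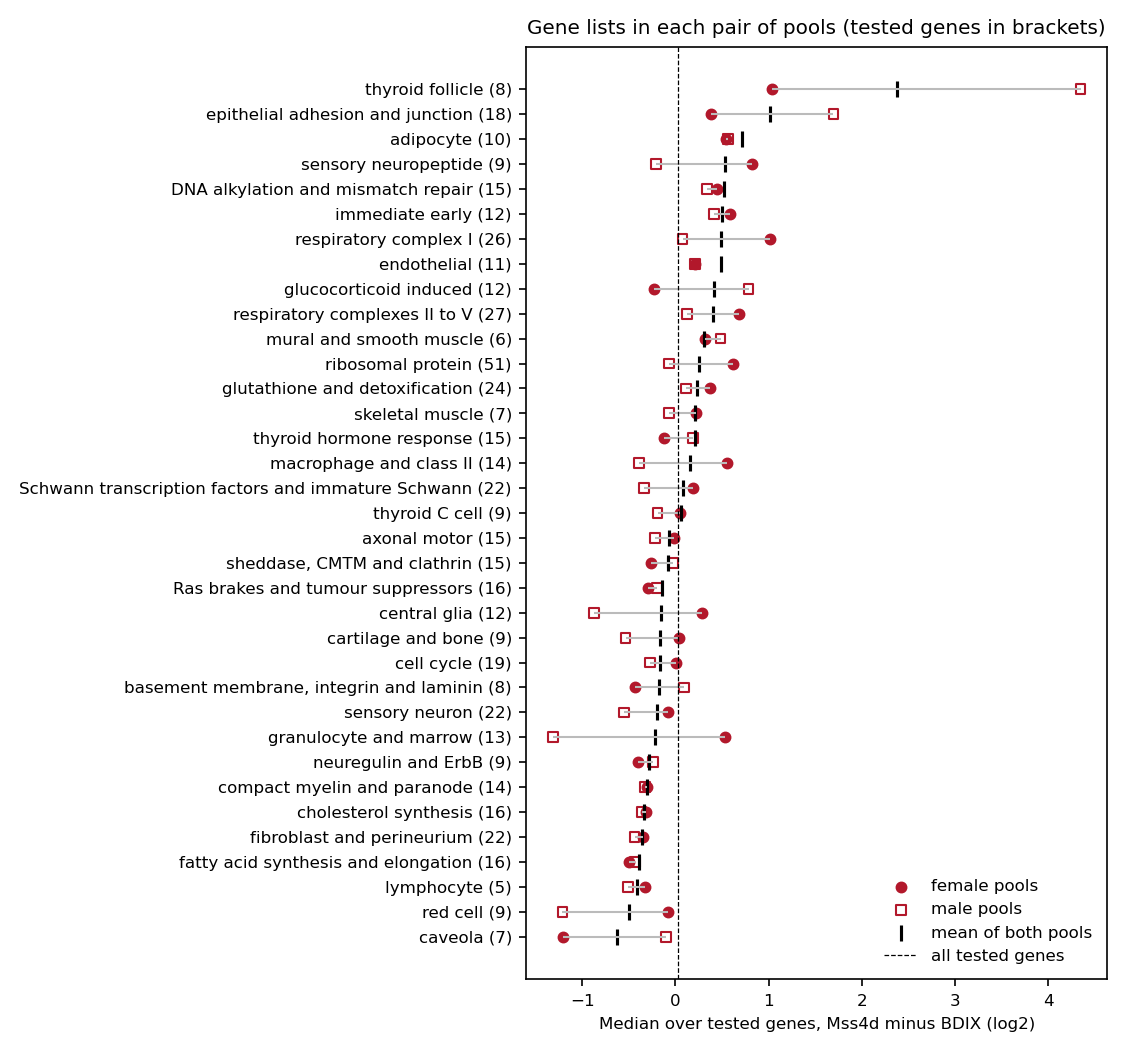
Median Mss4d minus BDIX difference (log2, x axis) of the tested genes of each list with at least 5 of them, in the female pools (filled circles), the male pools (open squares) and for the mean of both (bars), and the dashed line is the median of all tested genes. The thyroid follicle list reaches 4.34 in the male pools and the caveola list -1.21 in the female pools, and the respiratory lists are high in the female pools alone.

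Respiratory chain genes were higher in the female pools but did not pass. Of 26 tested complex I genes none passed, and the median was 1.01 in the female and 0.08 in the male pools. Ndufb7, a complex I subunit gene, was at 12.43 and 12.46 in Mss4d and 10.58 and 11.86 in BDIX (1.23 ± 0.33, limma adjusted p = 0.0681). The Mss4d pools were level, so the larger difference in the female pools came with the low BDIX female value. Of 27 genes of complexes II to V none passed either, with medians of 0.68 and 0.12. Of 51 ribosomal protein genes Rpl7 fell and no other passed, with medians of 0.62 and -0.07. Over all tested genes 6.71% passed.

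Calls in lists of other tissues and of acute responses stand beside 6.71% of all tested genes called, 1.82% higher and 4.89% lower. In the red cell list the haem synthesis gene Alas2 fell (-1.36 ± 0.27, limma adjusted p = 0.0344), 1 of 9 tested, and in the cartilage list Cnmd, a cartilage glycoprotein gene (-1.18 ± 0.20, limma adjusted p = 0.0243), 1 of 9. The hormone-sensitive lipase gene Lipe was the 1 rise among 10 adipocyte genes (1.49 ± 0.22, limma adjusted p = 0.0193). Cldn11, a claudin of central myelin, was the 1 call among 12 central glia genes (-1.27 ± 0.26, limma adjusted p = 0.0360). The immediate early genes Zfp36 (1.36 ± 0.30) and Ier2 (0.81 ± 0.19), which stress and dissection induce quickly, rose among 12. No gene passed among 13 granulocyte, 14 macrophage, 5 lymphocyte, 7 muscle, 6 mural, 9 neuropeptide, 15 DNA repair, 8 basement membrane, 19 cell cycle and 12 glucocorticoid-induced genes. At an unadjusted p under 0.05 limma gave 3473 of the 11839 tested probes.

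Since a congenic strain differs from its recipient by 1 donor segment, the calls were laid out by chromosome, named and ordered after GRCr8. The share of tested genes called ran from 2.89% on chromosome 16 to 10.1% on chromosome 4, against 6.71% for all genes, so every chromosome from 1 to 20 and X held calls. Chromosome 6, which holds Gpx2, had 28 calls among 359 tested genes (7.8%), of which 4 rose and 24 fell. The rises beside Gpx2 were Prkce, a protein kinase C gene (1.43 ± 0.26), Morn2 (1.40 ± 0.30) and the fructokinase gene Khk (1.19 ± 0.23). Around Gpx2, the 223rd tested gene in order, the calls were falls: Tmx1 the 194th, Hif1a, the hypoxia factor, the 211th (-1.29 ± 0.25), and Max, the partner of MYC, the 225th (-1.05 ± 0.24). Max was at background at 4.72 and 4.70 in Mss4d against 5.75 and 5.76 in BDIX, so the size of its fall is uncertain.

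**Figure D5:**
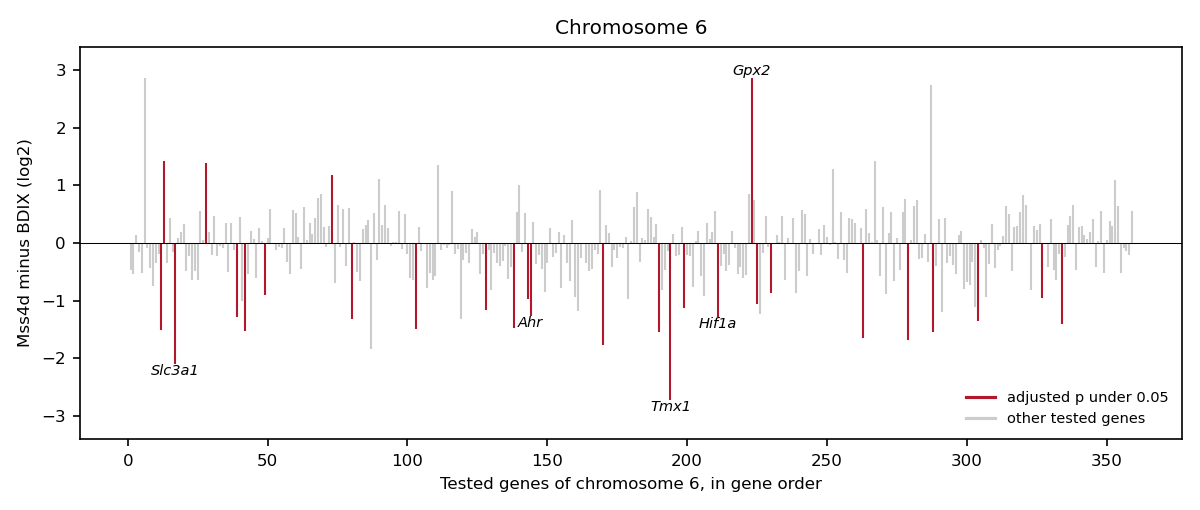
Mss4d minus BDIX difference (log2, y axis) of the 359 tested genes of chromosome 6 in gene order (x axis), with genes past the threshold in red. Red bars are spread along the chromosome, Gpx2 (2.86) is the highest of them, and the 2 tall grey bars that did not pass are Epcam (2.87) and Tshr (2.74).

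Genes with a second tested probe gave a check of single calls. Of 25 pairs of a called probe and another probe of the same gene, 15 had the same sign and 5 were both called, and the median ratio of the second to the called difference was 0.168. Cav1, Axl and Wdfy1 were called in the same direction with both probes. Neurl2 (1.55 and -1.76) and Kazn (-0.89 and 0.94) were called in opposite directions. Genes named here without a second value had 1 tested probe, and a sequence variant beneath it was not tested. Past the threshold, 372 of the 626 falls were also below BDIV, the source of the segment. Of the 231 rises, 159 were also above BDIV.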

How the data were processed

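Biotin-labelled RNA of pooled trigeminal nerves was hybridised to Illumina RatRef-12 bead arrays and read with GenomeStudio, per the labels. The deposited non-normalized table gives linear intensity and a detection p-value per probe and array, per the file headers. The authors' value table, also linear intensity, was used as an alternative. Its background and scaling options are not given in the sources used here.

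In R 4.3.3 with limma 3.58.1, neqc (offset 16, negative controls inferred from detection p, quantile) gave log2 values. Strain and sex were fitted over all 8 arrays (3 residual and 4.16 prior degrees of freedom) because 4 arrays leave 1. A second fit added Mss4d by sex (2 residual degrees of freedom). Tests were two-sided, Benjamini-Hochberg adjusted over 11839 probes with 0.05 as threshold. Strains have 1 pool per sex, nothing says that pools are separate cohorts, and p-values measure array noise and how unequal the sex difference is among strains. Sex pairs the pools and is a term.

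Of all probes 13793 had 1 gene symbol, 0 several and 8730 none, and 13752 were matched by gene identifier. A gene was represented by its tested probe with the highest mean. The 38 lists and the members were chosen with earlier results of these data known, so counts are descriptions without a list test. Named genes were, among calls of equal sign in both pools and outside the thyroid and epithelial lists, the 12 highest and 12 lowest, called members of those lists, up to 4 called members of each other list, or 2 by size, the 5 smallest p each way for the sex difference, and Gpx2 and Plekhh1. Other genes are given as list values, except Plvap and Wfdc2, the paired probes and the chromosome 6 genes, which were chosen after their values were seen. A lower bound of fold sets the bright mean against, per dim array, the higher of its lowest detected signal and the probe's own.

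On simulated data with 200 changed probes among 11839, the strain fit recovered 0%, 81% and 97.5% of log2 differences of 1, 2 and 4, with 0, 3 and 14 false calls. The sex fit recovered 0%, 0% and 83.5%. In the data 3473 probes had an unadjusted p under 0.05 in limma, and differences under 1, such as that of Ier2 (0.81), passed. The recovery on simulated data with 200 changed probes therefore need not hold for the data. Alternatives were other background corrections, scalings, filters, variance models and array subsets.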

Additional observations from a re-analysis of the deposited data

Results flagged for a closer look

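The male minus female difference of Mss4d departed from that of BDIX, BDIV and Mss4a by a test of the difference itself in 7 genes of the naming rule, all with an excess in the male pool. The excess was 5.909 for Calca, 5.751 for Dio1, 5.023 for Egfl6, 5.004 for Sectm1b, 4.031 for Tshr, 2.886 for Fabp4 and 2.614 for Tg (limma adjusted p from 0.00648 to 0.0403). Calca, Dio1, Egfl6, Sectm1b and Tshr were named for their small p in this same test, so their passing adds nothing to it. All of the 7 but Fabp4 were detected on neither BDIX array and met the detection rule through Mss4d alone. The residual spread of this test rests on the 3 sex differences of the other strains. With the detection filter lifted 0.271% of all probes passed. Among them were 8 of 20 follicle genes with a probe, namely Cdh16, Dio1, Foxe1, Iyd, Kcnj16, Slc5a8, Tg and Tshr, Calca of 11 C cell genes, Esrp1, Rab25 and Spint1 of 33 epithelial adhesion genes and none of 21 nasal, olfactory and salivary genes. Groups of 2 arrays are too small for a test of single outlying arrays.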

How the results depend on the processing

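The count of 857 probes was 3014 with arrays scaled to their medians, 389 with the 4 arrays normalized and fitted alone, 408 with only the 4 arrays in the fit, 135 without BDIV, 303 with no filter and 0 without moderation (2530 at an unadjusted p under 0.05 in limma). It ranged from 0 to 1409 when 1 array was left out, with 0 (2375 at an unadjusted p under 0.05) without the BDIX female array. It stayed within 1.5 times without background correction (580), with the authors' values (823, of which 42.6% were rises), with detection p under 0.01 on all 4 arrays (662) and with a trended robust variance (901). Without the sex term, that is with no replicate block, it was 835. Of 55 named calls 36 passed with only the 4 arrays in the fit, 0 held through all single-array omissions, and none changed sign under any alternative. The count of 38 for the sex difference was 90 with arrays scaled to their medians and 61 with no filter (14 shared), and ranged from 3 to 82 when 1 array of another strain was left out, which takes that strain out of the spread. The lowest count came without BDIX. Without an Mss4d array this test could not be fitted.

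Only some of the 38 lists were examined under the alternatives, and medians of 6 of those changed sign. Medians of the thyroid follicle, epithelial adhesion, myelin, caveola, endothelial and complex I lists kept theirs. The remaining lists were not examined in this way. With detection p under 0.01 on all 4 arrays the C cell list (0.056) went to -0.0397 and the Schwann cell factor list (0.082) to -0.0177. With 1 array left out the C cell list ranged from -0.0784 to 0.3175, the nasal list from -0.00948 to 0.762, the Schwann cell factor list from -0.246 to 0.288, the axonal motor list from -0.336 to 0.0997 and the sensory neuron list from -0.667 to 0.162. The turns of the first 3 came without the Mss4d female array and, for the C cell and Schwann cell lists, also without the BDIX female array, and those of the last 2 without the Mss4d male array. With arrays scaled to their medians the fibroblast (0.0947), axonal motor (0.289) and sensory neuron (0.217) lists turned positive. The causes were not tested. Signal over background limits the thyroid bounds, since BDIX, BDIV and Mss4a arrays hold Tg and Calca at background.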
